A study of Mus musculus with 12 samples.

Results

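The genes described here are 9 of the 26190 genes in the expression table, chosen by name for their part in sex steroid signaling. They are the nuclear receptors Esr1, Esr2 and Pgr, the membrane receptor Gper1, and the enzymes Cyp19a1, Srd5a1, Srd5a3, Hsd17b1 and Hsd17b4. Bulk RNA-seq was made from the whole telencephalon, the part of the forebrain that forms cortex and basal ganglia. The study asked whether male and female embryos differ before the surge of sex hormones. The 12 libraries came from wild-type C57BL/6J embryos, 1 embryo per library and 3 per group: E14.5 females, E14.5 males, E11.5 females and E11.5 males. E11.5 and E14.5 are embryonic days, and no group carried an engineered allele or received an agent.

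Sex steroids are made from cholesterol by a chain of enzymes. Aromatase, the product of Cyp19a1, turns androgens into estrogens, and the steroid reductases turn testosterone into the more potent dihydrotestosterone. Estrogens act through the nuclear receptors ERα (Esr1) and ERβ (Esr2), which bind DNA when they hold their ligand, and through the membrane receptor GPER1. In the rodent brain, aromatase and ERα are known best from the hypothalamus and the preoptic area, where they take part in the formation of sex differences around birth. Several enzymes of the same families do other work: HSD17B4 breaks down fatty acids in peroxisomes, and SRD5A3 makes dolichol, the lipid carrier of N-glycan synthesis.

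The sum of gene counts per library ran between 17551763 and 28355361, and E14.5 males had the shallowest library. FPKM, used here to compare genes, is the count divided by transcript length and library total, and CPM, used to compare samples, is the count divided by the library size after TMM normalization. Gene counts made up 86.4% of the library total in E14.5 females and 83.0% in E14.5 males, against 88.2% in E11.5 females and 88.5% in E11.5 males. Beside CPM, FPKM thus ran lower at E14.5, most in males, which bears on samples compared in FPKM below. Genes whose mean count reached 16 in any group were tested. Of the 9 genes, 5 passed and each passed in every group: Hsd17b4, Srd5a1, Srd5a3, Gper1 and Pgr. The other 4 (Cyp19a1, Hsd17b1, Esr2 and Esr1) did not. A call needed both an adjusted p below 0.05 and a log2 fold change beyond 0.5 in either direction. All 8 telencephalon markers checked were past the minimum, and Emx1, a transcription factor of the cortical primordium, averaged 43.1 FPKM in E14.5 females, 25.4 in E14.5 males, 26.8 in E11.5 females and 28.1 in E11.5 males. Each of the 4 groups bears its own run of sequencing identifiers in the labels, so the group and this series of identifiers cannot be told apart.

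Promoters are shown for the 4 genes on which the tested differences turn. Each is the 250 bases before the transcription start, from RefSeq on GRCm38.p6, 5′ to 3′ on the gene's own strand. Capitals mark matches on either strand to the GC box (GGGCGG), the TATA box (TATAAA) and the CCAAT box (CCAAT).
Gper1 promoter (chr5:139422929-139423178, plus strand): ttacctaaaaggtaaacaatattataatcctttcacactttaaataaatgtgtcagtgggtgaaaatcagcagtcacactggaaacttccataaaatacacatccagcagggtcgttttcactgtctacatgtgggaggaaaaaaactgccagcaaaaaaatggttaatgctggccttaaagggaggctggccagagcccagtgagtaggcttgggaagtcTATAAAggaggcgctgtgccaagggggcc
Pgr promoter (chr9:8899583-8899832, plus strand): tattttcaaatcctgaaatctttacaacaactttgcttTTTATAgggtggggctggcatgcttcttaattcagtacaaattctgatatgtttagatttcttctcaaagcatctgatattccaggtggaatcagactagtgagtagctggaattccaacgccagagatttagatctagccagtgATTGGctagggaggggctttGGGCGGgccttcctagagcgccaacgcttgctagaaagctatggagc
Srd5a1 promoter (chr13:69611464-69611713, minus strand): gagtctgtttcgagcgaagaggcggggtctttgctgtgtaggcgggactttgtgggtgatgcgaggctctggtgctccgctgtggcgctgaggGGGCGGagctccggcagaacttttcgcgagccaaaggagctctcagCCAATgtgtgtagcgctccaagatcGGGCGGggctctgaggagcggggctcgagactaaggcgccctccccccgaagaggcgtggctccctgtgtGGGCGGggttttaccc
Srd5a3 promoter (chr5:76140023-76140272, plus strand): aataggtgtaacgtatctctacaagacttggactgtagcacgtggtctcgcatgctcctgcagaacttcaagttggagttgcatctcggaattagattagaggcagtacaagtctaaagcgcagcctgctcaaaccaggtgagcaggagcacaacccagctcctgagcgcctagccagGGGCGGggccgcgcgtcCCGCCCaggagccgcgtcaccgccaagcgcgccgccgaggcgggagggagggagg

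The promoters of the reductase genes held 20 (Srd5a1) and 19 (Srd5a3) CpG dinucleotides, while those of Gper1 and Pgr held 2 and 4. The median over all 32851 mouse promoters searched was 6. Srd5a1 had 3 GC boxes, Srd5a3 had 2, Pgr had 1 and Gper1 had 0, and 32.7% of all promoters held at least 1. A TATA box began at position -29 from the start of Gper1, and at -212 of Pgr on the other strand. Such a match occurred in 12.4% of all promoters. A CCAAT box (33.8% of all promoters) was found in Pgr and Srd5a1. A full estrogen response element (GGTCANNNTGACC) was in none of these 4 windows and in 0.0639% of all promoters. Promoters of 7 of the 9 genes were searched, and none of Esr1, Esr2 and Cyp19a1 held this element either. These matches describe the letters of the window alone.

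The levels of the 9 genes covered a range from near the top of the table to the detection limit. At E14.5 the order by mean FPKM over 6 libraries was Hsd17b4 (40.0), Srd5a1 (5.79), Srd5a3 (4.57), Gper1 (1.55), Pgr (0.153), Hsd17b1 (0.0575), Cyp19a1 (0.0552), Esr2 (0.0173) and Esr1 (0.00925). At E11.5 the order was Hsd17b4 (43.7), Srd5a1 (7.11), Srd5a3 (6.29), Gper1 (0.498), Pgr (0.116), Hsd17b1 (0.0774), Esr2 (0.0248), Cyp19a1 (0.0201) and Esr1 (0.00146). The steps from Hsd17b4 to Srd5a1, from Srd5a3 to Gper1 and from Gper1 to Pgr were larger than the spread of the libraries at both ages, since the ranges did not overlap. Srd5a1 and Srd5a3 overlapped at both ages, and so did every pair of neighbors below Pgr, and Pgr with Hsd17b1. Hsd17b4 exceeded 94.6% of the genes of the table at E14.5 and 94.5% at E11.5. Esr1 exceeded 32.9% at E14.5 and 29.6% at E11.5, where it lay among the lowest genes listed above 0.

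**Figure D1:**
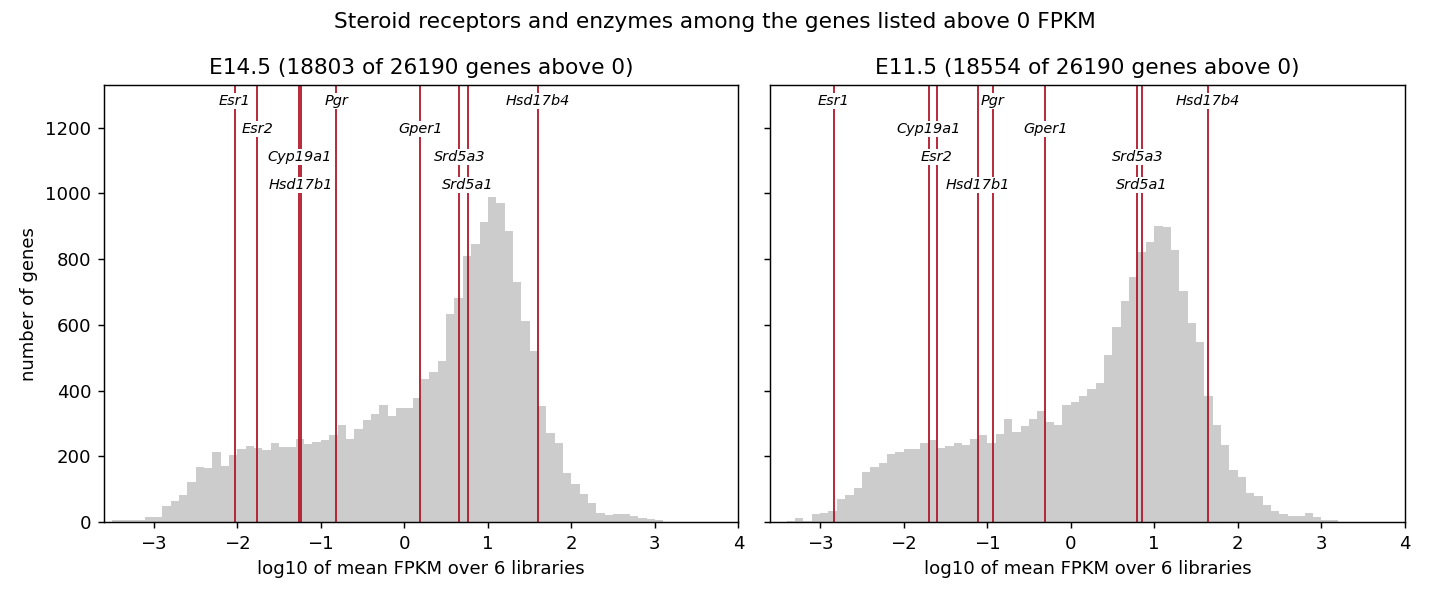
Histograms of the log10 of mean FPKM over the 6 libraries of each age, for genes listed above 0 (18803 at E14.5, left; 18554 at E11.5, right), with a red line at each of the 9 genes. Hsd17b4 lies right of the main peak, Srd5a1 and Srd5a3 on its left shoulder, and Pgr, Hsd17b1, Cyp19a1, Esr2 and Esr1 in the low tail.

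Esr1, the gene of ERα (chr10:4611989-5005633 on GRCm38), was at the detection limit. Its counts were 1, 3 and 1 in E14.5 females and 1, 4 and 3 in E14.5 males, against 0, 0 and 0 in E11.5 females and 2, 0 and 0 in E11.5 males. All 6 E14.5 libraries thus had a count and 1 of 6 E11.5 libraries did. The 0 counts allow up to 3 counts per library, which is between 0.0120 and 0.0142 FPKM in these E11.5 libraries. Over the ages the sums were 13 counts at E14.5 and 2 at E11.5, a depth-scaled ratio of 6.63 with a 95% counting interval of 1.5 to 60.5. Mean CPM was 0.0960 ± 0.0593 at E14.5 and 0.0144 ± 0.0353 at E11.5 (SD, n = 6). The exact two-sided permutation test gave p = 0.0195, unadjusted for 4 genes tested this way. It took the 6 embryos of an age as independent, though the E14.5 embryos came from 2 mothers.

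Cyp19a1, the aromatase gene (chr9:54165937-54268164), was also higher at E14.5 at very low counts. Its counts were 2, 7 and 5 in E14.5 females and 5, 4 and 4 in E14.5 males, against 2, 0 and 1 in E11.5 females and 2, 3 and 2 in E11.5 males. The ages overlapped through 1 E14.5 female library with 2 counts. The sums were 27 counts at E14.5 and 10 at E11.5, a depth-scaled ratio of 2.75 (95% counting interval 1.29 to 6.38). Mean CPM was 0.202 ± 0.0705 at E14.5 and 0.0705 ± 0.0415 at E11.5 (SD, n = 6; exact two-sided permutation test, p = 0.0108, unadjusted). When the count minimum was dropped and all genes with a count were fitted, the adjusted p of edgeR's quasi-likelihood test was 0.0173 for Cyp19a1 and 0.0177 for Esr1. In bulk tissue, fewer cells of a type and less RNA per cell cannot be told apart, here and below.

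Esr2, the gene of ERβ (chr12:76120419-76177259), had 2, 0 and 4 counts in E14.5 females and 1, 0 and 2 in E14.5 males, against 3, 1 and 3 in E11.5 females and 2, 1 and 3 in E11.5 males. The groups overlapped throughout. The depth-scaled ratio of E14.5 over E11.5 was 0.706 (95% counting interval 0.266 to 1.79; exact two-sided permutation test on CPM of 6 against 6 libraries, p = 0.455). Hsd17b1 (chr11:101078411-101080527), whose enzyme reduces estrone to estradiol, had 1, 5 and 5 counts in E14.5 females and 1, 1 and 0 in E14.5 males, against 2, 4 and 3 in E11.5 females and 2, 1 and 4 in E11.5 males. Its ratio of E14.5 over E11.5 was 0.829 (0.367 to 1.84; exact p = 0.537). Between the sexes, 3 libraries against 3 cannot give an exact two-sided p below 0.1. In the edgeR fit with no count minimum, none of the 4 genes passed between the sexes, with adjusted p between 0.143 (Hsd17b1) and 0.846 (Cyp19a1) at E14.5 and between 0.586 (Esr1) and 0.936 (Esr2) at E11.5. A difference between the ages was not detectable at this depth for Esr2 and Hsd17b1. Intervals and zero-count limits cover counting error only.

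Markers of the diencephalon and hypothalamus, the tissue next to the dissection and the known site of Esr1 and Cyp19a1, were present at low levels. The summed FPKM of the 9 markers ran between 11.1 and 17.7 in E14.5 females and between 10.5 and 12.7 in E14.5 males, against 18 to 19.4 in E11.5 females and 19.2 to 24.2 in E11.5 males. In E14.5 females the markers ran from 0.0335 FPKM (Rax) and 0.0509 (Six6) to 3.80 (Barhl2) and 4.17 (Lhx9). Between these levels, Sim1 had 0.39, Pomc 0.971 and Otp 1.56. Of all tested genes, 24.4% were called higher and 19.0% lower at E14.5. Of the 8 tested markers, 1 was called higher and 4 were called lower at E14.5, and none stood at 0. Their part in the values of Esr1 and Cyp19a1 was not tested.

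**Figure D2:**
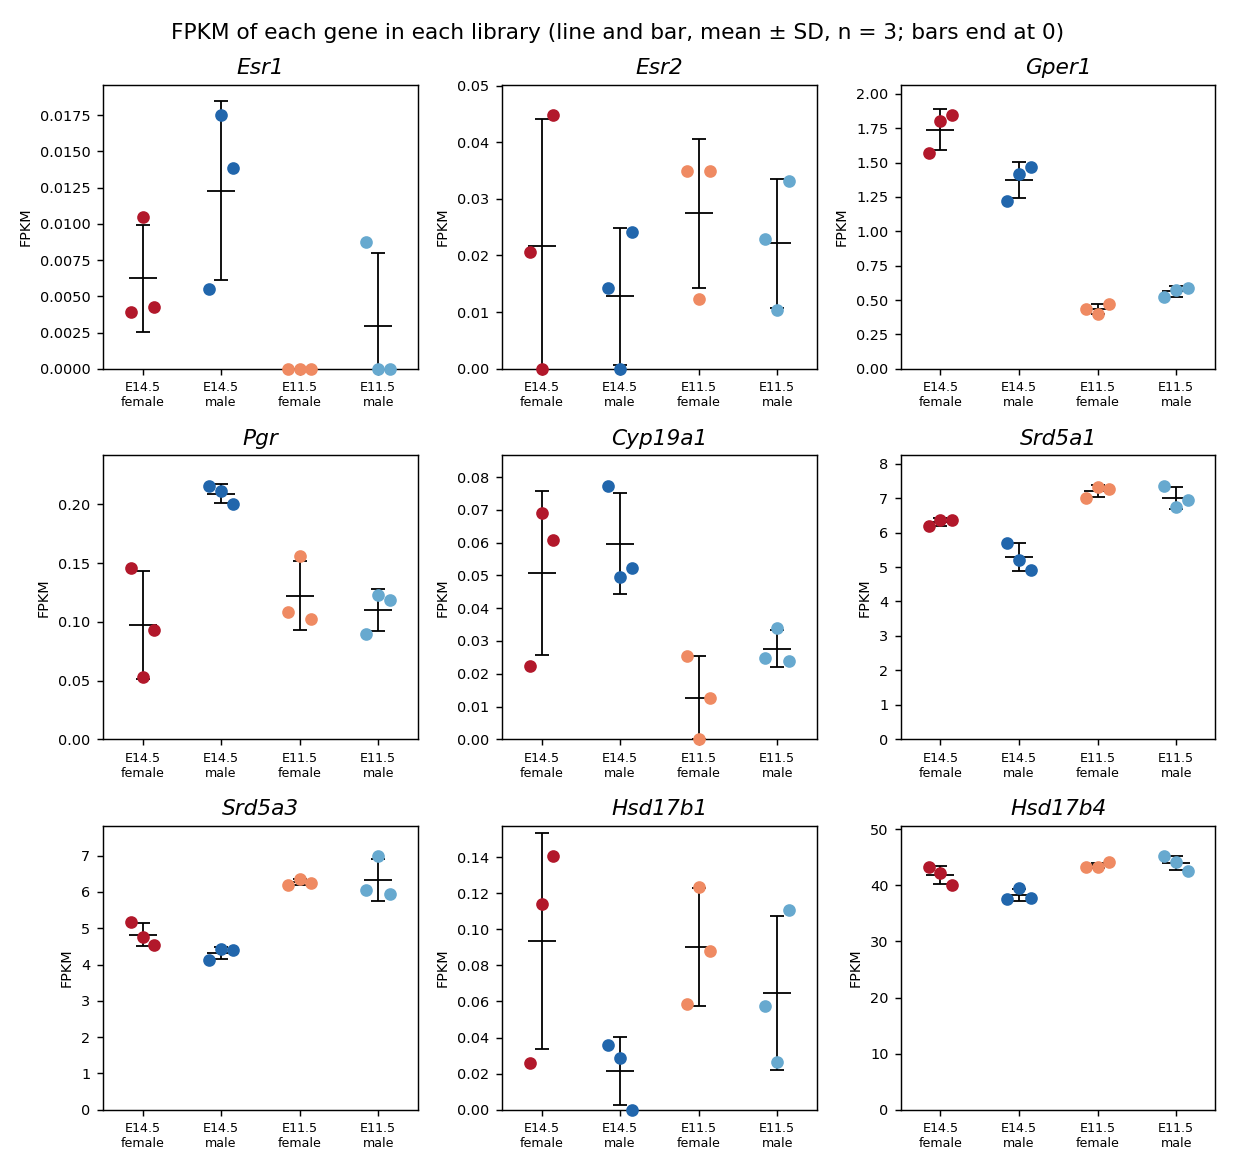
FPKM of each of the 9 genes in each library (points), with the mean ± SD of the 3 libraries of a group (black; bars end at 0), groups in the order E14.5 female, E14.5 male, E11.5 female, E11.5 male; each panel has its own linear axis starting at 0. Gper1 is higher in all 6 E14.5 libraries than in the 6 E11.5 libraries, and Pgr is highest in the 3 E14.5 male libraries.

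Gper1, the G protein-coupled membrane estrogen receptor (chr5:139423179-139427800), rose most between the ages among the 5 tested genes. It had 1.57, 1.80 and 1.84 FPKM in E14.5 females and 1.22, 1.42 and 1.47 in E14.5 males, against 0.437, 0.396 and 0.469 in E11.5 females and 0.521, 0.575 and 0.591 in E11.5 males. The lowest E14.5 library was above the highest E11.5 library. Mean CPM was 4.59 ± 0.676 at E14.5 and 1.42 ± 0.209 at E11.5 (SD, n = 6 each). The log2 fold change was 1.69 ± 0.11 (SE), or 3.23-fold (adjusted p = 2.12e-09, edgeR's quasi-likelihood test). It was 1.70 ± 0.11 after correction for GC content and transcript length. Gper1 was the 1 gene of the 5 called higher, where 24.4% of the 14454 tested genes were called higher and 19.0% lower, and 0 of the 5 were called lower.

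The neuronal and choroid plexus markers moved with the age in the same direction as Gper1. All 6 neuronal markers were called higher at E14.5, where 24.4% of all tested genes were. Their summed FPKM ran between 1369 and 1568 in E14.5 females and between 1300 and 1473 in E14.5 males, against 475 to 528 in E11.5 females and 518 to 610 in E11.5 males. The 5 tested choroid plexus markers were called higher as well, with sums between 143 and 333 in E14.5 females and between 208 and 423 in E14.5 males, against 7.72 to 9.77 in E11.5 females and 7.45 to 13.2 in E11.5 males. Most of the E14.5 choroid plexus sums came from Ttr, with 228 FPKM in E14.5 females and 266 in E14.5 males. It had 1.68 in E11.5 females and 3.72 in E11.5 males. Clic6 moved less, with 7.26 in E14.5 females and 7.35 in E14.5 males, against 3.97 in E11.5 females and 3.92 in E11.5 males. The part of the neuronal and choroid plexus markers in the rise of Gper1 was not tested.

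The profile of Gper1 over the 12 libraries was closest to those of Gmip (Pearson r = 0.995), Efna3 (0.993) and Madd (0.992) among 11659 genes whose counts averaged 100 or more. Gmip encodes a GTPase-activating protein, Efna3 an ephrin ligand and Madd a guanine exchange factor of Rab proteins. Gmip averaged 40.4 CPM at E14.5 and 11.7 at E11.5, and Efna3 14.9 at E14.5 and 3.77 at E11.5. These correlations of log2 CPM are descriptions: the genes share libraries, depth and the contrast of the ages.

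The 3 enzyme genes of high level were slightly lower at E14.5, all by less than the fold needed for a call. Srd5a3, the polyprenol reductase of dolichol synthesis (chr5:76140273-76155503), had 5.17, 4.77 and 4.53 FPKM in E14.5 females and 4.12, 4.42 and 4.40 in E14.5 males, against 6.19, 6.35 and 6.25 in E11.5 females and 6.06, 6.98 and 5.93 in E11.5 males. Every E14.5 library was below every E11.5 library. The log2 fold change was -0.41 ± 0.06 (adjusted p = 1.37e-05, edgeR), and -0.28 ± 0.06 after the GC content and length correction (adjusted p = 0.000474).

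Srd5a1, the steroid reductase that is the main form in rodent brain (chr13:69573449-69611463), had 6.18, 6.36 and 6.38 FPKM in E14.5 females and 5.71, 5.22 and 4.91 in E14.5 males, against 7.01, 7.33 and 7.27 in E11.5 females and 7.36, 6.73 and 6.94 in E11.5 males. On this FPKM scale the ages did not overlap, while on CPM they did, with up to 20.10 at E14.5 and from 19.98 at E11.5. E14.5 males were the lowest group. The log2 fold change of E14.5 over E11.5 on counts was -0.25 ± 0.05 (adjusted p = 0.000273, edgeR; -0.21 ± 0.05 after the correction). A predicted gene on the same strand, Gm17108, shares exon sequence with Srd5a1 in GENCODE M21, so reads of both could be mixed.

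Hsd17b4, the peroxisomal multifunctional enzyme (chr18:50128201-50196270), had 43.3, 42.1 and 40.0 FPKM in E14.5 females and 37.5, 39.5 and 37.7 in E14.5 males, against 43.2, 43.3 and 44.1 in E11.5 females and 45.1, 44.1 and 42.6 in E11.5 males. E14.5 males stood below the other groups, while E14.5 females overlapped with E11.5. The log2 fold change was -0.08 ± 0.03 (adjusted p = 0.0254, edgeR). With the GC content and length correction it was -0.01 ± 0.03 (adjusted p = 0.788). At the adjusted p alone, 1 of the 5 genes was higher and 3 were lower at E14.5, where 40.1% of all tested genes were higher and 41.6% lower.

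The nearest profiles to Srd5a3 were those of Arap3 (r = 0.984), Rnaset2b (0.977) and Rflnb (0.974). Those to Srd5a1 were Msto1 (0.970), Nek6 (0.962) and Nploc4 (0.960), and those to Hsd17b4 were Rpusd3 (0.938), Pabpn1 (0.935) and Elof1 (0.933). All 9 of these genes had a negative log2 fold change between the ages, between -1.11 for Rflnb and -0.19 for Pabpn1.

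Pgr, the nuclear progesterone receptor (chr9:8899833-8968611), was the 1 gene of the 5 with a called difference between the sexes. At E14.5 it had 29, 12 and 17 counts in females, against 31, 38 and 34 in males. In FPKM these were 0.145, 0.0533 and 0.0928 in E14.5 females and 0.216, 0.211 and 0.200 in E14.5 males. The sexes did not overlap, and the females varied more among themselves than the males. Mean CPM was 0.775 ± 0.359 in E14.5 females and 1.72 ± 0.0549 in E14.5 males (SD, n = 3 each). The log2 ratio of female over male was -1.16 ± 0.29 (0.449-fold; adjusted p = 0.0049, edgeR). At E14.5, 5.62% of the tested genes were called lower in females and 5.98% higher.

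Sex ratios at E14.5 followed the GC content of the transcripts across the table. The median log2 ratio was -0.148 in the fifth of genes that holds Pgr (GC content 44.6 to 48.6%) and 0.369 in the fifth that holds Gper1 (56.1 to 73.2%). Without a correction, 865 of the 14454 tested genes were called higher and 812 lower in females at E14.5. With the correction for GC content and length, 113 were called higher and 246 lower. The corrected ratio of Pgr was -0.92 ± 0.30 (adjusted p = 0.04, edgeR). Without E14.5 female replicate 1 the uncorrected ratio was -1.56, and without E14.5 female replicate 2 it was -0.84 (adjusted p = 0.0222). On log2(FPKM + 1), where the added 1 exceeds the level of Pgr, the difference was -0.14 and was no longer large enough for a call.

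At E11.5 Pgr did not differ between the sexes beyond its spread. It had 0.108, 0.156 and 0.102 FPKM in E11.5 females and 0.0893, 0.123 and 0.118 in E11.5 males, and the log2 ratio was 0.17 ± 0.31 (95% interval -0.55 to 0.89; adjusted p = 0.819, edgeR). The difference of the log2 sex ratios, E14.5 minus E11.5, was -1.33 ± 0.43 (adjusted p = 0.0235, edgeR's interaction test). Of all tested genes, 18.5% were called lower in this comparison. With the GC content and length correction it was -1.08 ± 0.44 (adjusted p = 0.13), and with the replicate block added to that correction -1.12 (adjusted p = 0.0355). Without E11.5 male replicate 1 the adjusted p was 0.0569, and without E11.5 female replicate 2 it was 0.072. Over both sexes, E14.5 averaged 1.25 ± 0.565 CPM and E11.5 0.909 ± 0.179 (SD, n = 6), a log2 fold change of 0.34 ± 0.21 (95% interval -0.16 to 0.83; adjusted p = 0.158).

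The profiles closest to Pgr were those of Bclaf3 (r = 0.887), Ap4b1 (0.869) and Gm12657 (0.863), which were lower than those found for the other 4 genes. Bclaf3 had a log2 sex ratio of -0.68 at E14.5. Among the cell type markers at E14.5, 2 of 8 markers of meninges and mesenchyme were called lower in females, and their summed FPKM ran between 99.5 and 117 in E14.5 females and between 111 and 142 in E14.5 males. Of the endothelium markers 1 of 6, and of the microglia and macrophage markers 1 of 6, were called lower in females. Of the telencephalon markers, 3 of 8 were called higher in females, and no marker of the other 4 lists was called. Of all tested genes, 5.98% were called higher and 5.62% lower in females at E14.5. The marker calls were made without the GC content and length correction. The part of the markers in the difference of Pgr was not tested.

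Gper1 in females lay above the male level at E14.5 and below it at E11.5. Its mean was 1.74 ± 0.148 FPKM in E14.5 females and 1.37 ± 0.131 in E14.5 males, and 0.434 ± 0.0365 in E11.5 females and 0.562 ± 0.0368 in E11.5 males (SD, n = 3 each). The sexes did not overlap at either age, but neither difference passed the test. The log2 ratio was 0.30 ± 0.13 at E14.5 (95% interval -0.01 to 0.61; adjusted p = 0.0834, edgeR) and -0.34 ± 0.18 at E11.5 (-0.76 to 0.07; adjusted p = 0.38). The change of the ratio between the ages was 0.64 ± 0.22 (adjusted p = 0.0351). Of all tested genes, 20.6% were called higher in this comparison. After the GC content and length correction the E14.5 ratio was 0.02 ± 0.14 (adjusted p = 0.944) and the change between the ages 0.32 ± 0.23 (adjusted p = 0.426).

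**Figure D3:**
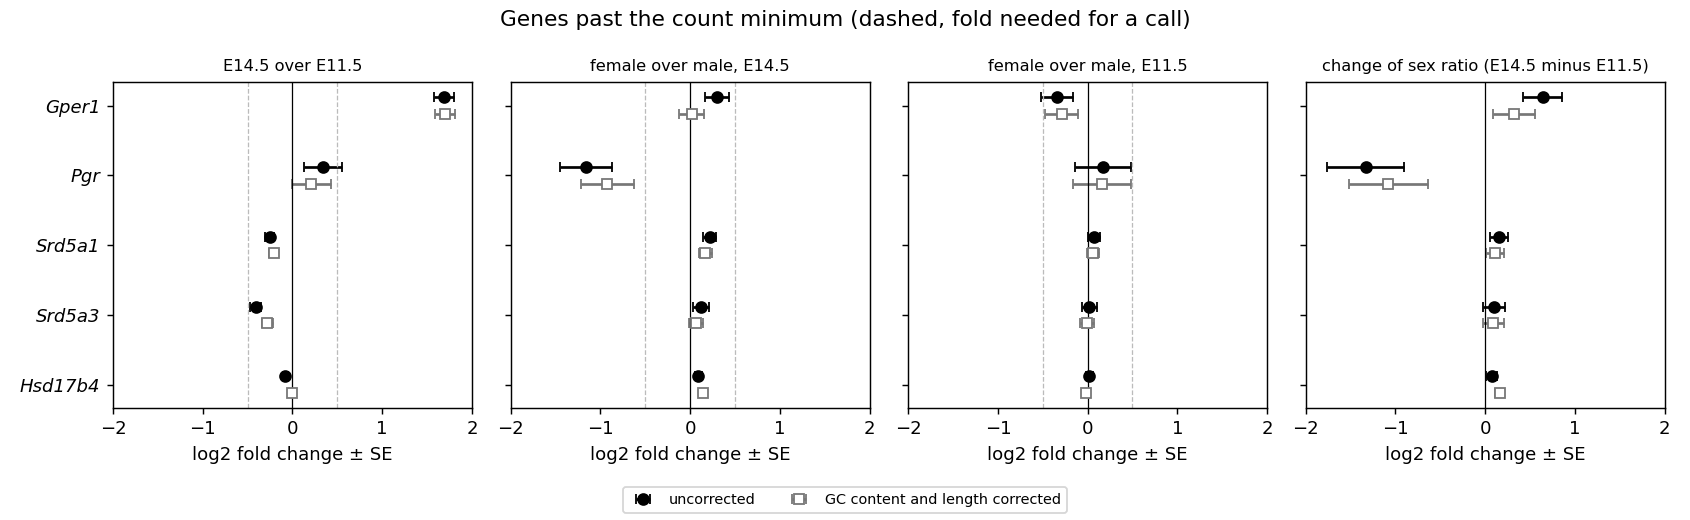
Log2 fold changes ± SE of the 5 tested genes for E14.5 over E11.5, female over male at E14.5, female over male at E11.5, and the change of the female to male ratio between the ages, uncorrected (black circles) and corrected for GC content and transcript length (open squares); dashed lines mark an absolute log2 fold change of 0.5. Between the ages Gper1 stands at 1.69, and at 1.70 after the correction; between the sexes at E14.5 Pgr stands at -1.16, and at -0.92 after it.

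Among the enzyme genes, Srd5a1 was slightly higher in females at E14.5, with mean CPM of 19.5 ± 0.657 in E14.5 females and 16.8 ± 1.18 in E14.5 males (SD, n = 3 each) and no overlap. The log2 ratio was 0.22 ± 0.07 (adjusted p = 0.0205, edgeR), below the fold needed for a call, and 0.17 ± 0.07 after the correction (adjusted p = 0.0981). Hsd17b4 had a ratio of 0.09 ± 0.04 (adjusted p = 0.0965), and 0.14 ± 0.04 after the correction (adjusted p = 0.0178). Srd5a3 had a ratio of 0.12 ± 0.09 (95% interval -0.08 to 0.32; adjusted p = 0.278). At the adjusted p alone, 1 of the 5 genes was higher (Srd5a1) and 1 lower (Pgr) in females, where 23.8% of all tested genes were higher and 21.6% lower. With a block for the replicate number, which pairs littermates, or for the litter, Hsd17b4 passed as well (adjusted p = 0.0447 and 0.0491), so that 2 of the 5 were higher. At E11.5 none of the 5 was called, where 0.104% of tested genes were called higher and 0.270% lower. The E11.5 log2 ratios of the enzymes were 0.07 ± 0.07 for Srd5a1, 0.02 ± 0.08 for Srd5a3 and 0.02 ± 0.04 for Hsd17b4.

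Lists of related genes are given next by their counts of calls between the ages, each to be read beside the 24.4% called higher and 19.0% called lower of all tested genes. Their calls between the sexes at E14.5 are to be read beside 5.98% of tested genes called higher and 5.62% called lower in females. Most of the tested other steroid and estrogen-related receptors were higher at E14.5. Of 13 listed nuclear and membrane receptors, 9 were tested, and 7 were called higher and 0 lower, with a median log2 fold change of 0.72 beside -0.01 over all tested genes. The 4 with the smallest adjusted p were the membrane progestin receptors Paqr8 (log2 fold change 1.01, adjusted p = 1.62e-09) and Paqr9 (1.91, 1.29e-08), the estrogen-related receptor Esrrg (1.38, 1.82e-09) and the mineralocorticoid receptor Nr3c2 (1.81, 4.08e-07). Paqr8 averaged 7.32 ± 0.673 FPKM at E14.5 and 3.78 ± 0.422 at E11.5 (SD, n = 6 each).

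Several enzymes of steroid synthesis from cholesterol had few or no counts, and 9 of the 18 genes listed were under the minimum. Cyp17a1, whose enzyme makes androgens, had 0 counts at E14.5 and 1 at E11.5, and Cyp11b1 and Cyp11b2 had 0 in all libraries. Of the 9 tested, 2 were called higher and 2 lower (median log2 fold change 0.09, beside -0.01 over all tested genes). Cyp11a1, the side-chain cleavage enzyme, averaged 0.389 ± 0.0531 FPKM at E14.5 and 0.198 ± 0.0766 at E11.5 (log2 fold change 1.09, adjusted p = 2.2e-05). Hsd3b6 fell to 0.814 ± 0.384 FPKM at E14.5, against 5.82 ± 1.57 at E11.5 (log2 fold change -2.75, adjusted p = 2e-06), and Tspo, a mitochondrial outer membrane protein, to 1.97 ± 0.535 against 5.53 ± 0.682 (-1.46, 1.93e-07). Stard3, a cholesterol transporter of late endosomes, had a log2 fold change of 0.22 (adjusted p = 0.00326). Between the sexes at E14.5, Star, the mitochondrial cholesterol transport protein, was called lower in females (-0.80, adjusted p = 0.00906), and the electron donors Fdxr (0.63, 0.000317) and Por (0.52, 6.67e-06) were called higher. After the correction Star was at -0.64 (adjusted p = 0.0538), Fdxr at 0.28 and Por at 0.17, and none of these 3 was called. Hsd3b6, like Akr1c14, Acaa1b and Rnaset2b elsewhere in the text, has close paralogs among which the counting could split reads.

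Of 13 other genes of the hydroxysteroid dehydrogenase and reductase families, 12 were in the table and 6 were tested, and 0 were called higher and 1 lower (median -0.31, and -0.10 with the correction). The called gene was Cbr4, a mitochondrial carbonyl reductase, at -0.51 (adjusted p = 2.61e-05), which was not called after the correction (-0.26). Hsd17b7, an enzyme of cholesterol synthesis, was at -0.41, and Hsd17b10, a mitochondrial enzyme, at -0.40. Tecr, the last enzyme of fatty acid elongation, was at 0.22. Srd5a2, the reductase of the male reproductive tract, had 12 counts at E14.5 and 8 at E11.5.

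Of 15 genes of steroid inactivation and conjugation, 14 were in the table and 6 were tested, and 3 were called higher and 1 lower (median log2 fold change 0.60). Hsd11b2, which inactivates glucocorticoids, fell to 0.611 ± 0.234 FPKM at E14.5, against 5.26 ± 0.444 at E11.5 (log2 fold change -3.08, adjusted p = 8.44e-11). Cyp1b1, which hydroxylates estrogens, rose to 3.03 ± 0.351 FPKM at E14.5, against 0.994 ± 0.14 at E11.5 (1.66, adjusted p = 1.96e-10). Cyp7b1, an oxysterol hydroxylase, was also higher (1.22, adjusted p = 5.14e-07), and Cyp39a1 had a log2 fold change of -0.22. At E14.5 Cyp7b1 (-0.54) and the dehydrogenase Akr1c14 (-1.54) were called lower in females. After the correction they were at -0.31 (adjusted p = 0.223) and -1.20 (adjusted p = 0.0927), and neither was called. The estrogen sulfotransferase Sult1e1, under the minimum, had 0 counts at E14.5 and 34 at E11.5.

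Chaperones hold the nuclear receptors ready for their ligands, and coregulators act with them on chromatin. All 17 coregulators and chaperones were tested, and 1 was called higher and 6 lower (median -0.23), beside 24.4% and 19.0% of all tested genes. The 4 with the smallest adjusted p were the chaperones Hsp90aa1 (log2 fold change -0.67) and Hsp90ab1 (-0.52) and the cochaperones Fkbp4 (-0.68) and Ptges3 (-0.75). Hsp90ab1 averaged 883 ± 79.3 FPKM at E14.5 and 1309 ± 30.7 at E11.5 (SD, n = 6 each). At E14.5 the coactivators Pelp1 (0.55) and Carm1 (0.52) were called higher in females, and neither was called after the correction (0.22 and 0.20).

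Genes known to respond to estrogen in breast or uterus showed no common direction. Of 12 listed, 10 were tested, and 2 were called higher and 4 lower (median -0.19). Greb1, a cofactor of ERα, fell to 0.196 ± 0.0423 FPKM at E14.5, against 1.38 ± 0.134 at E11.5 (log2 fold change -2.75, adjusted p = 3.69e-11), and the cyclin gene Ccnd1 fell as well (-2.29, 2.94e-08). Igfbp4, which binds insulin-like growth factors, was lower (-0.68, adjusted p = 3.94e-10), and Myc, a transcription factor of growth, was higher (1.23, adjusted p = 2.01e-10). None of the 10 was called between the sexes.

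The last lists surround Hsd17b4 and Srd5a3. Of 18 genes of peroxisomal beta-oxidation, 17 were tested, and 2 were called higher and 1 lower between the ages (median -0.03), beside 24.4% and 19.0% of all tested genes. Acox3, an oxidase of the first step, was at 0.58, the carnitine transferase Crot at -0.49 and the import receptor Pex5 at 0.35. Pex5 (0.56), Pex14 (0.51) and Acaa1b (1.08) were called higher in females at E14.5, and of these Acaa1b alone was called after the correction (0.78, adjusted p = 0.03). All 22 genes of dolichol and N-glycan precursor synthesis were tested, and 1 was called higher and 3 lower (median -0.12). The mannosyltransferase Alg2 was at 0.74, and the glucosyltransferases Alg6 and Alg8 were at -0.91 and -0.54 and Alg13 at -0.62. Dpm3, a subunit of dolichol phosphate mannose synthase, was called higher in females at E14.5 (0.57, adjusted p = 0.00755) and was not called after the correction (0.26). At E11.5 none of the genes of the 8 lists was called between the sexes.

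**Figure D4:**
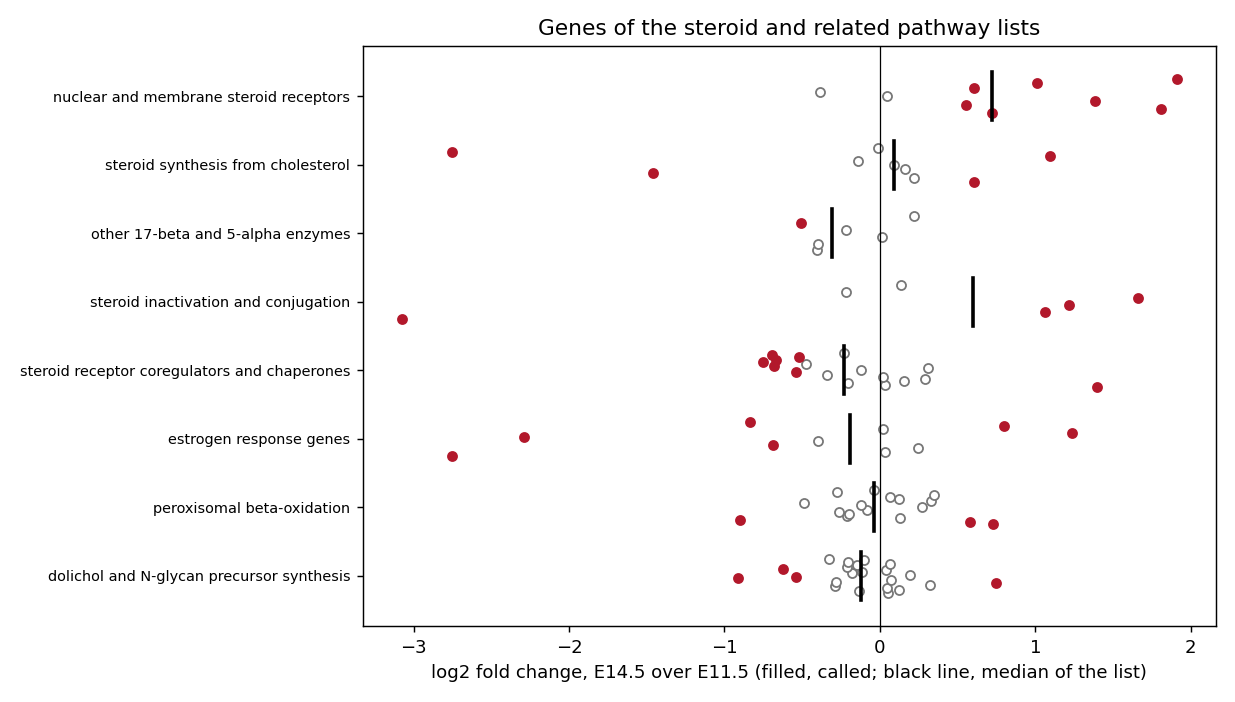
Log2 fold change of E14.5 over E11.5 for each tested gene of the 8 lists (points; filled red where called), 1 row per list, with the median of the list as a black line. The median is 0.72 for the other steroid and estrogen-related receptors and between -0.31 and 0.60 for the other lists.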

How the data were processed

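Libraries were made from poly(A) RNA with a stranded kit and sequenced as 100-base pairs by the authors, who aligned reads to GRCm38 (mm10) with STAR 2.6.0c and deposited, for each of 26190 genes, expected counts (17.3% not whole, sharing of reads among genes and use of strand not given in the sources used here) and FPKM values. Counts were rounded and tested in edgeR 4.0.16 (R 4.3.3; TMM, robust quasi-likelihood test, 4 groups in 1 fit, 8 residual degrees of freedom) with Benjamini-Hochberg adjustment over 14454 genes. The change of the sex ratio was called at the adjusted p alone. E14.5 over E11.5 is the mean of both sexes. Intervals of log2 fold changes use the t distribution on 8 degrees of freedom. The test also draws on the spread of other genes, so these intervals can be wider than the test implies. The correction fitted, per library, a loess surface (span 0.5) on GC content and length as offsets. It would also remove a true difference that follows GC content. Correlations used log2 CPM with a prior count of 2. The script was tested on simulated data. Other tools were limma 3.58.1, DESeq2 1.42.0, matplotlib 3.10.9, scipy 1.17.1, pandas 2.3.3 and Python 3.11.15.

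Named are the 9 genes, the 3 genes of nearest profile to each tested one, and in each list the 4 genes with the smallest adjusted p between the ages and any called between the sexes. Srd5a2, Cyp17a1, Cyp11b1, Cyp11b2, Sult1e1 and the marker Emx1 were named after their values were seen. Results of some genes that this rule names are not reported here. Genes and lists were chosen with earlier results of these data known. Hsd17b8 and Sts were not analysed here. The study's main text names 2 litters at E11.5, but its supplement lists more mothers, and the supplement was used here. It gives same-numbered E11.5 males and females 1 mother, and at E14.5 replicates 1 and 2 of both sexes share a mother. By the supplement, same-numbered embryos are thus littermates. Their deviations from the group means had Pearson correlations of 0.214, 0.271 and 0.56 at E14.5, and of 0.067, 0.132 and 0.225 among the E11.5 pairs. Unlike-numbered pairs within the litter of E14.5 replicates 1 and 2 were at 0.268 and 0.168. Pairs across the E14.5 litters were between -0.421 and -0.300, and unlike-numbered E11.5 pairs between -0.153 and 0.035.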

Additional observations from a re-analysis of the deposited data

Results flagged for a closer look

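The female to male ratio of Pgr differed between the ages: its log2 change was -1.33 (edgeR's interaction test, adjusted p = 0.0235), with -1.16 at E14.5 and 0.17 at E11.5. The ratio of Gper1 also differed between the ages, by 0.64 (adjusted p = 0.0351), with 0.30 at E14.5 and -0.34 at E11.5. Such a call was common: 20.6% of all tested genes were called higher and 18.5% lower in this comparison. With the correction for GC content and length the adjusted p was 0.13 for Pgr and 0.426 for Gper1.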

How the results depend on the processing

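The alternatives were DESeq2 size factors, upper quartile factors, the DESeq2 Wald test, other count minimums, limma on log2(FPKM + 0.1) and log2(FPKM + 1), the GC content and length correction, a fit of each age alone, blocks for replicate number and litter, and each library left out. Among the 9 genes, 1 was called between the ages; the number was 3 with no count minimum, by the addition of Esr1 and Cyp19a1, and 4 with no fold minimum. At E14.5, 1 was called between the sexes, against 0 with a count minimum of 50 (Pgr was then not tested) or on log2(FPKM + 1), and 2 with no fold minimum. None was called at E11.5 in any alternative. The change of the sex ratio was called for 2 genes, against 0 with the GC content and length correction and 1 with the DESeq2 Wald test, with no count minimum, with a count minimum of 50 or on log2(FPKM + 1). With each library left out the number ran between 0 and 2. With the replicate block, the ratio of Pgr at E14.5 was -1.19 and its change between the ages -1.36; the block alone changed no call of the 5 genes. With the block and the correction together, the change of Hsd17b4 passed (0.16, adjusted p = 0.0171) and that of Gper1 did not (0.33). Of the genes of the 8 lists, 9 were called higher and 3 lower in females at E14.5, against 1 and 1 with the correction. The lists held between 6 and 22 tested genes each. Of all 14454 tested genes, 865 (5.98%) were called higher and 812 (5.62%) lower, against 113 and 246 with the correction. With each library left out, the numbers of list genes ran between 7 and 11 higher and between 1 and 5 lower. The exact tests of Esr1, Cyp19a1, Esr2 and Hsd17b1 kept their side of 0.05 under all 15 alternatives.

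Each group had 3 embryos, at E14.5 from 2 mothers, so litter effects and embryo differences were measured with few animals. No mother gave embryos of both ages, so age and litter cannot be told apart. The tests between the ages treated littermates as independent, and their E14.5 side rested on 2 litters. Counts of 0 to 7 per library for Esr1, Esr2, Cyp19a1 and Hsd17b1 limit what can be seen to large ratios. Pgr rested on 12 to 38 counts per library.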
